A study of Mus musculus with 6 samples.

Results

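The 9 genes described here, Dusp1, Dusp4, Dusp5, Dusp6, Dusp14, Spry2, Spry4, Spred1 and Etv5, are the phosphatase, Sprouty and Spred genes of negative feedback on ERK signalling together with an ETS factor of the same pathway. They were taken by gene symbol from the 54429 genes listed in each of 6 featureCounts tables, and all 9 were among the 20409 genes with enough counts to be tested. RNA came from bulk lysate of the prefrontal cortex (PFC) of mice at 6 months of age, with 2 libraries in each of 3 groups. WT + vehicle mice were labelled with the (C57BL/6 x C3H) background and no transgene. Tau + vehicle mice were PS19(P301S), a line in which the mouse prion promoter drives human tau with the P301S mutation found in inherited frontotemporal dementia. Tau + UNC0642 mice were PS19(P301S) mice given UNC0642, an inhibitor of the histone H3K9 methyltransferases EHMT1 and EHMT2, by intraperitoneal injection at 1 mg/kg daily for 3 days and taken 24 hours after the last dose. The vehicle was saline with DMSO. There was no WT group given UNC0642, so the action of the compound without the transgene was not measured. The labels call the libraries biological duplicates and do not give the sex of each mouse.

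Growth factor receptors, neurotrophin receptors and synaptic calcium entry activate Ras, which passes the signal through Raf and MEK to the kinase ERK. Active ERK raises transcription of its own inhibitors, so these transcripts are commonly used as a readout of recent pathway activity. The dual-specificity phosphatases (Dusp genes, also called MAP kinase phosphatases) remove phosphate from the activation loop of ERK and its relatives, Sprouty and Spred proteins act further up, at the level of Ras and Raf, and Etv5 is an ETS transcription factor induced by fibroblast growth factor and ERK signalling. In brain, Dusp1, Dusp4, Dusp5 and Dusp6 respond to neuronal activity and Bdnf, and Sprouty and Spred genes are also expressed in glia.

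The promoters of Dusp5, Dusp1 and Dusp6 are shown first because they differ in the motifs they carry for activity-regulated transcription factors. The RefSeq promoter table of build GRCm38.p6 held 7 of the 9 genes, and Dusp4 and Spry4 were not in it. The 250 bases before each annotated start were searched on both strands for 5 motifs, namely the CArG box bound by serum response factor, the cAMP response element (CRE) TGACGTCA, its core TGACG, the AP-1 site TGANTCA and the ETS site CCGGAAG. The core lies inside the full CRE, so every CRE is also counted as a core. Each stretch is written 5′ to 3′ on the strand of the gene, in lower case with motif matches in capitals, and ends before the next annotated exon base. For Dusp1 the RefSeq start differs from the start of the GENCODE gene, chr17:26505590-26562128, so its stretch lies inside that gene. The Dusp5 stretch lies at chr19:53528895-53529108 on the plus strand, the Dusp1 stretch at chr17:26508520-26508722 on the minus strand and the Dusp6 stretch at chr10:99262981-99263230 on the plus strand.
Dusp5: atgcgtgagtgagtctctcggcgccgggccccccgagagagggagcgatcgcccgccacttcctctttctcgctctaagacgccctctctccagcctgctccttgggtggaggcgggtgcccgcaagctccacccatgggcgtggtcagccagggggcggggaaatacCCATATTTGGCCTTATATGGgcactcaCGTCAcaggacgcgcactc
Dusp1: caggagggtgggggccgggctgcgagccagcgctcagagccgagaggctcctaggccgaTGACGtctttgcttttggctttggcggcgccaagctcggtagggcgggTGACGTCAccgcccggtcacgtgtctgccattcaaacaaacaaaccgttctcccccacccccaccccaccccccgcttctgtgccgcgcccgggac
Dusp6: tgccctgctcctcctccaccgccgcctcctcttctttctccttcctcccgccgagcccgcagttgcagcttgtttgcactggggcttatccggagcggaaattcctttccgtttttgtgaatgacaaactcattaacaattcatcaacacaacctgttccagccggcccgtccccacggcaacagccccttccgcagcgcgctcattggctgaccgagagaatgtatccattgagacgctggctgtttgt

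The Dusp5 promoter held 2 adjoining CArG boxes, beginning 82 and 72 bases before the RefSeq start, and a CRE core at 55 bases. The Dusp1 promoter held a full CRE at 143 bases and a further core at 191 bases before the start. Of 32851 promoter windows of the same length, 1.47% held a CArG box, 1.55% a full CRE, 17.8% a core, 6.75% an AP-1 site and 6.91% an ETS site. None of the 5 motifs was found in the windows of Dusp6, Dusp14, Spry2, Spred1 or Etv5, which says only that these letters were not in those windows. These matches are descriptions of sequence, and no binding was measured here.

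The 6 libraries held 17005664 to 28972176 counts assigned to genes, so that 3 counts came to between 0.104 and 0.176 CPM (counts normalized to library size). Prnp, the mouse gene whose promoter drives the transgene, was at 1708 CPM in the library labelled WT replicate 1, against 885 CPM in WT replicate 2 and 1452 to 1695 CPM in the 4 PS19(P301S) libraries. Mapt, the mouse tau gene, was at 595 CPM in WT replicate 1 and 455 CPM in WT replicate 2. The PS19(P301S) libraries held 567 to 614 CPM of Mapt. The library labelled WT replicate 1 therefore went against its label in both measures. Fold changes with and without it are shown for each gene in the plot of libraries left out, and for some genes in the text. Xist, transcribed from the inactive X chromosome, had 8107, 5340 and 4104 counts in WT replicate 2 and in Tau replicates 1 and 2, and 2 to 5 counts in the other 3 libraries. The Y-linked Ddx3y showed the opposite, with 1705 to 2411 counts in those 3 libraries and 2 to 18 elsewhere. The UNC0642 and vehicle groups of PS19(P301S) mice thus differed completely in sex-linked expression, and treatment and sex cannot be told apart in that comparison. The WT group was mixed, so both comparisons with WT were also unbalanced in sex-linked expression. WT replicate 2 matched the Tau libraries in it. The WT library that matched the UNC0642 libraries was WT replicate 1, the library with Prnp at the PS19(P301S) level. Among cell type markers, Tau replicate 2 stood apart, with a summed level of 7 oligodendrocyte markers at 5539 CPM against 1449 to 2964 CPM in the other libraries and of 7 striatal neuron markers at 171 CPM against 68.1 to 82.3 CPM. The 7 neuron markers summed to between 6680 and 7431 CPM in all libraries, and no marker of any list was at 0 in any library.

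In Tau + vehicle mice, 7 of the 9 feedback genes were called higher than in WT + vehicle mice, where 3.72% of all genes tested were. None was called lower, and Dusp1 and Spry2 did not pass the test. Calls rest on an unadjusted p under 0.05 by edgeR's quasi-likelihood test and a fold change of at least 1.2. None of the 9 had an adjusted p under 0.05 by that test in this comparison. The fold changes of the 7 ran from 1.22 for Dusp14 and Spred1 to 1.99 for Dusp4. In Tau + UNC0642 mice the same 7 genes and Spry2 were called higher than in WT mice, where 3.77% of all genes tested were. Dusp6 alone passed the test between UNC0642 and vehicle in PS19(P301S) mice, and it rose further, where 3.73% of all genes tested were called up. The plot of CPM by library shows these values for each gene.

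**Figure D1:**
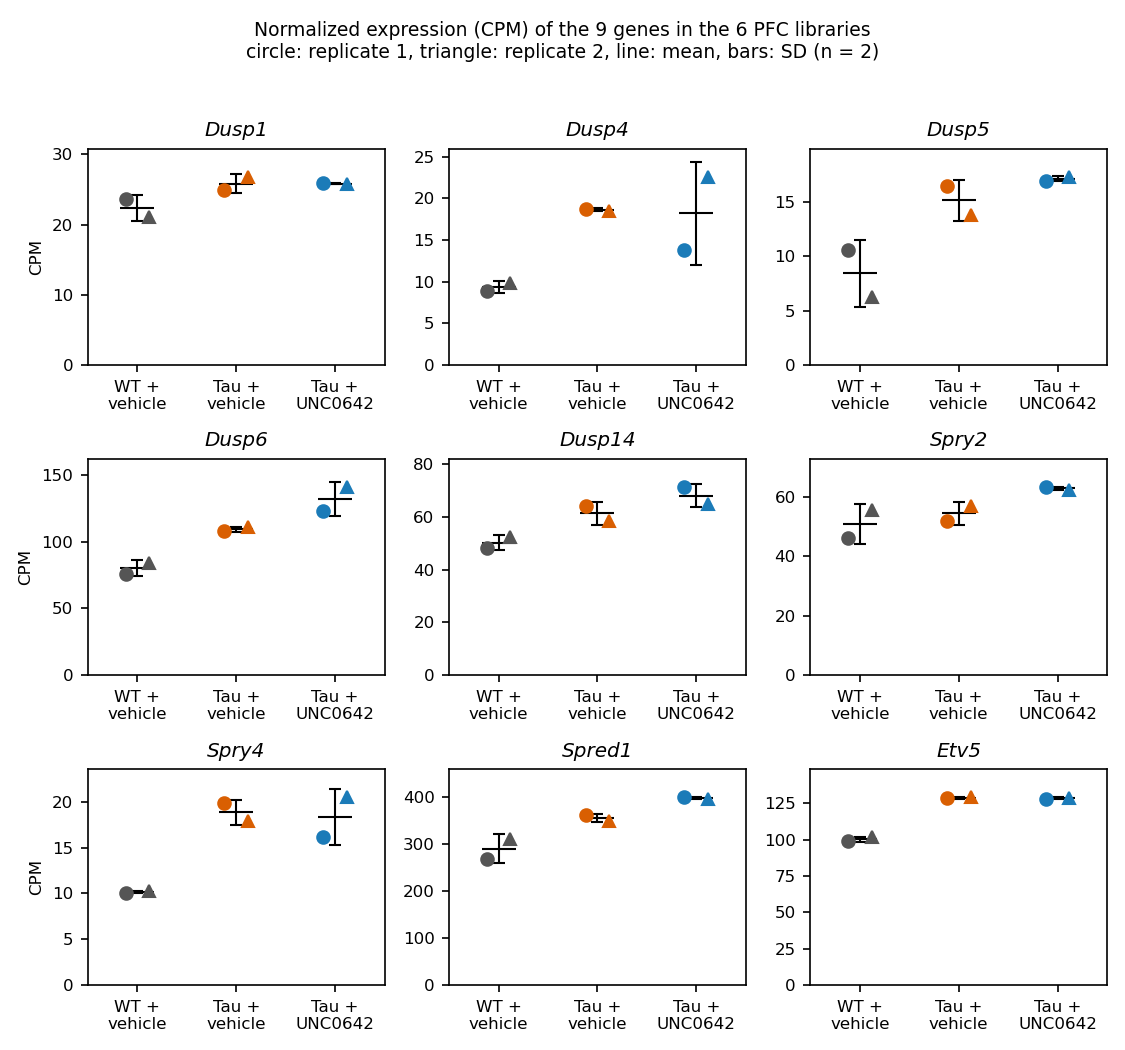
Normalized expression of the 9 genes in each library, in CPM on linear axes that start at 0, with circles for replicate 1, triangles for replicate 2, lines for group means and bars for the SD of 2 libraries. The 4 PS19(P301S) libraries lay above both WT libraries for 8 of the 9 genes, Spry2 being the exception. The same held for 12.1% of all genes tested.

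A gene was called changed when edgeR's quasi-likelihood test gave an unadjusted p under 0.05 and the fold change was at least 1.2, the thresholds used in the study. By that rule 759 of the 20409 genes were called up in Tau against WT, or 3.72%, and 1244 were called down, or 6.1%. Of the 9 genes 7 and 0 were. The 9 genes were chosen with earlier results of these data known, so setting them beside all genes is a description and no test. The median log2 fold change of the 9 genes was 0.36, and that of all genes tested was 0.00. In 8 of the 9 genes both Tau libraries were above both WT libraries, which held for 21.9% of all genes tested. None of the 9 had a Benjamini-Hochberg adjusted p under 0.05 by edgeR's quasi-likelihood test, where 0.157% of all genes did, although 7 had an unadjusted p under 0.05. DESeq2's Wald test and edgeR's likelihood ratio test each gave 5 of the 9 an adjusted p under 0.05, and limma-voom gave 0. The share of all genes passing by these other tests is not reported here, so the 5 cannot be set beside it. With 2 libraries a group these p-values rest on 3 residual degrees of freedom and on variance shared across genes. In bulk tissue, fewer cells of a type and less RNA per cell cannot be told apart.

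Dusp4 and Dusp5 are inducible nuclear phosphatases, Dusp5 being selective for ERK and Dusp4 acting also on JNK and p38. Dusp4 (chr8:34807297-34819894, GRCm38, plus strand) was at 8.83 and 9.88 CPM in the WT libraries, 18.8 and 18.5 CPM in the Tau libraries and 13.9 and 22.5 CPM in the UNC0642 libraries. All 4 PS19(P301S) libraries were above both WT libraries, and the UNC0642 pair was spread wider than the vehicle pair and enclosed it. Dusp4 was called up in Tau against WT, with a log2 fold change of 0.99 ± 0.20 (SE; fold 1.99; edgeR's quasi-likelihood test, adjusted p = 0.133). Dusp5 (chr19:53529109-53542431, plus strand), the gene with paired CArG boxes, was at 10.6 and 6.25 CPM in WT, 16.5 and 13.8 CPM in Tau and 16.9 and 17.3 CPM in UNC0642 libraries. The groups did not overlap, although the WT replicates differed from each other by more than the Tau replicates did. Dusp5 was called up with a log2 fold change of 0.85 ± 0.22 (SE; fold 1.80; adjusted p = 0.223, same test). It was 1.28 without the library labelled WT replicate 1 and 0.52 without WT replicate 2, and passed the test both times. An antisense gene overlaps Dusp5, and whether reads were counted by strand is not stated, so reads of the pair cannot be told apart.

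Dusp1, an immediate early nuclear phosphatase that prefers p38 and JNK, was the phosphatase that did not pass the test. It was at 23.7 and 21.01 CPM in WT, 24.9 and 26.7 CPM in Tau and 25.9 and 25.8 CPM in UNC0642 libraries. Both Tau libraries were above both WT libraries, but by little. Its log2 fold change in Tau against WT was 0.20 with a 95% confidence interval from -0.04 to 0.45 (edgeR's quasi-likelihood test, adjusted p = 0.487). Without the library labelled WT replicate 1 the log2 fold change of Dusp1 was 0.29 and the gene was called. Dusp1 (chr17:26505590-26562128, minus strand) is overlapped on the plus strand by Ergic1, a gene of the early secretory pathway, and counts of these genes may share reads.

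Dusp6 is the cytoplasmic phosphatase specific for ERK and a standard transcript of the feedback loop. Dusp6 (chr10:99263231-99267489, plus strand) was at 76.0 and 84.5 CPM in WT, 107.9 and 111.0 CPM in Tau and 123.1 and 141.1 CPM in UNC0642 libraries. The 3 groups followed each other without overlap, WT lowest and UNC0642 highest. In Tau against WT Dusp6 was called up with a log2 fold change of 0.45 ± 0.09 (SE; fold 1.36; edgeR's quasi-likelihood test, adjusted p = 0.139). Dusp14, a small atypical dual-specificity phosphatase (chr11:84048041-84069261, minus strand), was at 48.1 and 52.2 CPM in WT, 64.3 and 58.3 CPM in Tau and 71.2 and 64.8 CPM in UNC0642 libraries. Its groups also did not overlap, and its Tau and UNC0642 values lay close together. Dusp14 was called up in Tau against WT with a log2 fold change of 0.29 ± 0.10 (SE; adjusted p = 0.305, same test), and without the library labelled WT replicate 1 it was 0.23 and no longer called.

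Of the Sprouty genes, Spry4 was called up in Tau and Spry2 was not, and the difference between them was not tested. Sprouty proteins are membrane-associated inhibitors that act between receptor tyrosine kinases and Raf. Spry4 (chr18:38586247-38601415, minus strand) was at 10.1 and 10.3 CPM in WT, 19.8 and 17.9 CPM in Tau and 16.2 and 20.5 CPM in UNC0642 libraries. The WT libraries were nearly equal, and all 4 PS19(P301S) libraries were well above them. Spry4 was called up in Tau against WT with a log2 fold change of 0.89 ± 0.15 (SE; fold 1.85; edgeR's quasi-likelihood test, adjusted p = 0.0577), the smallest adjusted p of the 9 genes in this comparison. Spry2 (chr14:105891947-105896819, minus strand) was at 46.0 and 55.5 CPM in WT, 51.7 and 57.0 CPM in Tau and 63.2 and 62.4 CPM in UNC0642 libraries. The WT and Tau libraries overlapped, and the UNC0642 libraries were above all the others. The log2 fold change of Spry2 in Tau against WT was 0.10 with a 95% confidence interval from -0.14 to 0.34. Its sign depended on the WT library, being -0.03 without the library labelled WT replicate 1 and 0.24 without WT replicate 2, and it passed the test in neither case.

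Spred1 recruits neurofibromin to the membrane, where Ras is switched off. Spred1 (chr2:117121374-117182279, plus strand) was at 268.4 and 310.8 CPM in WT, 360.2 and 348.2 CPM in Tau and 398.7 and 394.8 CPM in UNC0642 libraries. The 3 groups did not overlap, and the gap between the WT libraries was wider than that within either other group. Spred1 was called up in Tau against WT with a log2 fold change of 0.29 ± 0.08 (SE; edgeR's quasi-likelihood test, adjusted p = 0.262), and without the library labelled WT replicate 1 it was 0.19, under the 1.2-fold limit. Etv5 (chr16:22381309-22439719, minus strand) was at 98.9 and 101.5 CPM in WT, 128.3 and 129.1 CPM in Tau and 128.1 and 128.8 CPM in UNC0642 libraries. Replicates of Etv5 lay close together in every group, and the 4 PS19(P301S) libraries were practically level. Its call in Tau against WT had a log2 fold change of 0.36 ± 0.07 (SE; fold 1.29; adjusted p = 0.129, same test), which stayed between 0.34 and 0.38 when any library was left out.

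**Figure D2:**
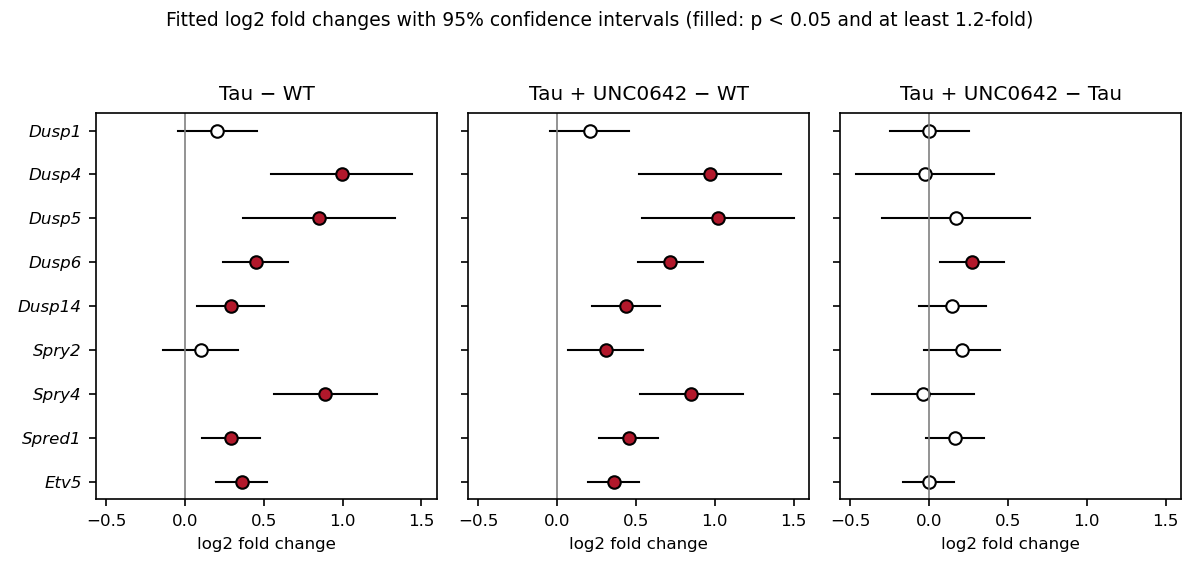
Fitted log2 fold changes of the 9 genes with 95% confidence intervals, 1 panel for each comparison. Filled points were called changed, which were 7 genes in Tau against WT, 8 in Tau + UNC0642 against WT and 1, Dusp6, in Tau + UNC0642 against Tau. All of these were up, where 3.72%, 3.77% and 3.73% of all genes tested were called up.

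Markers of other cell types also differed between Tau and WT libraries. Of 7 striatal neuron markers 6 were called up, with summed levels of 82.3 and 171 CPM in Tau against 73.9 and 68.1 CPM in WT libraries. Of 7 oligodendrocyte markers 3 were called up, with sums of 2046 and 5539 CPM in Tau against 2964 and 1449 CPM in WT. Of 6 endothelial markers 2 were called down, with sums of 125.7 and 127.9 CPM in Tau against 156.5 and 157.8 CPM in WT. The 7 astrocyte, 7 microglia and 6 oligodendrocyte progenitor markers had 2, 2 and 1 called up, and 1 of 6 tested meningeal fibroblast markers was called down. Their part in the differences of the feedback genes was not tested. Without Tau replicate 2, the library high in striatal and oligodendrocyte markers, the median log2 fold change of the 9 genes in Tau against WT was 0.36. Tau replicate 1 alone then stands for its group, and its endothelial sum of 125.7 CPM was also under both WT sums. Leaving out a library does not test the part of cell composition.

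The comparison of Tau + UNC0642 with Tau + vehicle asks whether EHMT inhibition moved these genes in mice carrying the transgene. Of the 9 genes 1 was called up and 0 down, where 3.73% and 3.95% of all genes tested were called. The median log2 fold change of the 9 was 0.15, or 0.052 without Tau replicate 2, and that of all genes tested was 0.00. Both UNC0642 libraries were above both Tau libraries for 5 of the 9 genes, Dusp5, Dusp6, Dusp14, Spry2 and Spred1, which held for 20.4% of all genes tested. None of the 9 genes had an adjusted p under 0.05 by edgeR's quasi-likelihood test, by DESeq2 or by limma-voom, 1 had an unadjusted p under 0.05, and 0.0196% of all genes tested passed at that adjusted level.

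Dusp6 was the gene called, with a log2 fold change of 0.27 ± 0.09 (SE; fold 1.21; edgeR's quasi-likelihood test, adjusted p = 0.461). Its call rested on single libraries, since the log2 fold change was 0.25 without Tau replicate 1 and 0.17 without UNC0642 replicate 2, and the gene was called in neither case. Spry2 and Spred1 had log2 fold changes of 0.21 and 0.16, each with an edgeR quasi-likelihood adjusted p of 0.602, and were not called. For Spry4 and Dusp4 the log2 fold changes were -0.04 and -0.03, with 95% confidence intervals from -0.36 to 0.28 and from -0.46 to 0.41, so that a change of moderate size in either direction was not detectable with these libraries. The interval was narrowest for Etv5, from -0.16 to 0.16 around a log2 fold change of 0.00. None of the 7 genes that were higher in Tau than in WT was called lower after UNC0642 with all 6 libraries, and Dusp4 was called lower, by a log2 fold change of -0.43, once UNC0642 replicate 2 was left out. With a model term for high or low Xist, which only the WT pair can separate from group, 4 of the 9 genes were called, 3 up and Dusp5 down. The WT pair also differed in Prnp, at 1708 and 885 CPM, and in Dusp5, at 10.6 and 6.25 CPM. The term therefore carries every difference within that pair, and these calls cannot be read as adjusted for sex alone. Markers of other cell types moved here too, with 5 of 7 striatal neuron, 2 of 7 oligodendrocyte, 2 of 6 oligodendrocyte progenitor and 1 of 7 microglia markers called down, and 1 of 7 neuron and 1 of 6 endothelial markers called up. The neuron marker was Syt1, with a log2 fold change of 0.55. Their part in these results was not tested.

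The comparison of Tau + UNC0642 with WT + vehicle uses the same WT libraries as the first comparison and the same UNC0642 libraries as the second, so its values are not independent of them. Of the 9 genes 8 were called up and 0 down, all but Dusp1, where 3.77% of all genes tested were called up and 5.69% down. Both UNC0642 libraries were above both WT libraries for all 9 genes, which held for 22.1% of the genes tested, and 8 of the 9 genes had all 4 PS19(P301S) libraries above both WT libraries, which held for 12.1%. The median log2 fold change of the 9 was 0.45, beside -0.01 for all genes tested. Dusp6 was the member with an adjusted p under 0.05 (log2 fold change 0.72 ± 0.09, fold 1.65, edgeR's quasi-likelihood adjusted p = 0.0144), a level that 0.216% of all genes tested reached. DESeq2 and the likelihood ratio test each gave 7 of the 9 genes an adjusted p under 0.05, limma-voom gave 1, and edgeR's quasi-likelihood test gave 0 when UNC0642 replicate 2 was left out. The share of all genes passing by DESeq2 or the likelihood ratio test is not reported here, so the 7 cannot be set beside it. Among cell type markers 1 neuron, 1 astrocyte and 1 microglia marker were called up. In the other direction 1 endothelial, 1 oligodendrocyte progenitor and 1 meningeal fibroblast marker were called down. Of the striatal neuron and oligodendrocyte markers 0 were called. The part of these markers in the differences of the 9 genes was not tested.

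The fold changes stand here beside those in Tau against WT. Dusp5 was 2.03-fold, Dusp4 1.96-fold and Spry4 1.81-fold higher in Tau + UNC0642 than in WT, beside 1.80-fold, 1.99-fold and 1.85-fold in Tau. Dusp14 and Spred1 were 1.36-fold and 1.37-fold higher, beside 1.22-fold each in Tau, and Etv5 was 1.28-fold higher, beside 1.29-fold in Tau. Spry2, not called in Tau, was 1.24-fold higher in Tau + UNC0642 than in WT (edgeR's quasi-likelihood test, adjusted p = 0.295). Its log2 fold change of 0.31 became 0.18 without the library labelled WT replicate 1, 0.30 without UNC0642 replicate 1 and 0.32 without UNC0642 replicate 2, and it was called in none of these. The log2 fold change of Dusp4, 0.97, was 0.56 without UNC0642 replicate 2 and 1.27 without UNC0642 replicate 1, and was called both times.

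**Figure D3:**
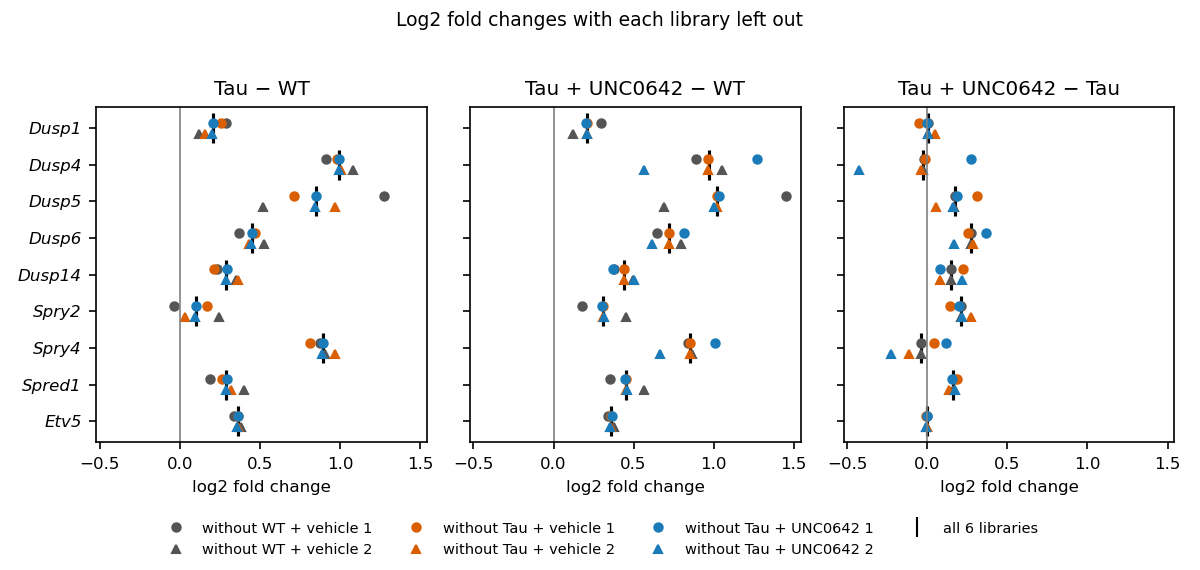
Log2 fold change of each gene with all 6 libraries (vertical tick) and with each library left out in turn (circles for replicate 1, triangles for replicate 2, coloured by group). Dusp5 moved most with the WT libraries, from 0.52 to 1.28 in Tau against WT, and Dusp4 with the UNC0642 libraries, while Etv5 stayed between 0.34 and 0.38 in Tau against WT.

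Levels can be compared between genes only per length, here as CPM per kilobase of annotated exon. In WT libraries Spred1 was the highest of the 9, at 42.7 ± 4.4 CPM per kilobase (SD, n = 2). Dusp14, Dusp6, Etv5 and Spry2 followed between 25.8 and 24.3 CPM per kilobase, and neighbours among these 4 overlapped. Dusp1 at 6.75 CPM per kilobase, Dusp4 and Dusp5 at 3.42 and 3.41 CPM per kilobase, and Spry4 at 2.14 CPM per kilobase were the low genes, of which Dusp4 and Dusp5 overlapped. In Tau libraries Dusp6 stood second, at 34.9 ± 0.7 CPM per kilobase (SD, n = 2), clear of Dusp14 at 31.5 ± 2.2 CPM per kilobase, and in UNC0642 libraries it reached 42.2 ± 4.1 CPM per kilobase. Spred1 remained highest and Spry4 lowest in all 3 groups. The genes with the largest fold changes against WT, Dusp4, Dusp5 and Spry4, were thus the 3 with the lowest levels per length.

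Across the 6 libraries the log2 CPM of the 9 genes were positively correlated in every pair. Pearson's r over the 36 pairs ran from 0.387 to 0.976 with a median of 0.825, and the lowest r was 0.614 over the 28 pairs without Spry2. All pairs share the 6 libraries and the difference between the groups, so these are descriptions with no test. The mean of the 9 standardized log2 CPM values was -1.21 and -1.06 in the WT libraries, 0.36 and 0.38 in the Tau libraries and 0.66 and 0.87 in the UNC0642 libraries. The genes outside the 9 whose log2 CPM followed that mean most closely over the 6 libraries were Sntb2, Calr, Eid1, Gpat3 and Skiv2l2, with r between 0.994 and 0.997. Sntb2, a syntrophin, was at 54.6 and 56.8 CPM in WT, 80.6 and 84.3 CPM in Tau and 86.4 and 95.3 CPM in UNC0642 libraries, a rise in the same order with no overlap. Calr, the endoplasmic reticulum chaperone calreticulin, ran from 317.1 CPM in the lower WT library to 424.2 CPM in the higher UNC0642 library. Sntb2 and Calr were picked for their likeness to the mean of the 9, so their order of groups is a description and was not tested.

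The rest of the pathway was counted in the same way. Of 93 other genes in 9 lists of the ERK pathway and its relatives, 92 were tested (Spry3 had 0 counts in every library). In Tau against WT 10 of the 92 were called up and 1 down, with a median log2 fold change of 0.07. In UNC0642 against vehicle 5 were called up and 6 down, with a median of -0.05. In Tau + UNC0642 against WT 6 were called up and 6 down, with a median of 0.01. Of all genes tested 3.72%, 3.73% and 3.77% were called up in these comparisons, and 6.1%, 3.95% and 5.69% down. The counts for single lists are descriptions with no test. Of 6 other MAP kinase phosphatases, among them Dusp7 and Dusp10, none was called in Tau against WT, with log2 fold changes from -0.18 to 0.22. Of 4 other Sprouty, Spred and Sef genes 1, Spred2, was called up, and of 6 other ETS factors, among them Etv1 and Etv4, none was called. Receptors and ligands had 2 of 16 called up, adaptors and the Ras to ERK kinases 1 of 18, negative regulators of Ras and Raf 1 of 11, atypical phosphatases 2 of 10 and JNK and p38 kinases 1 of 11, with none down.

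**Figure D4:**
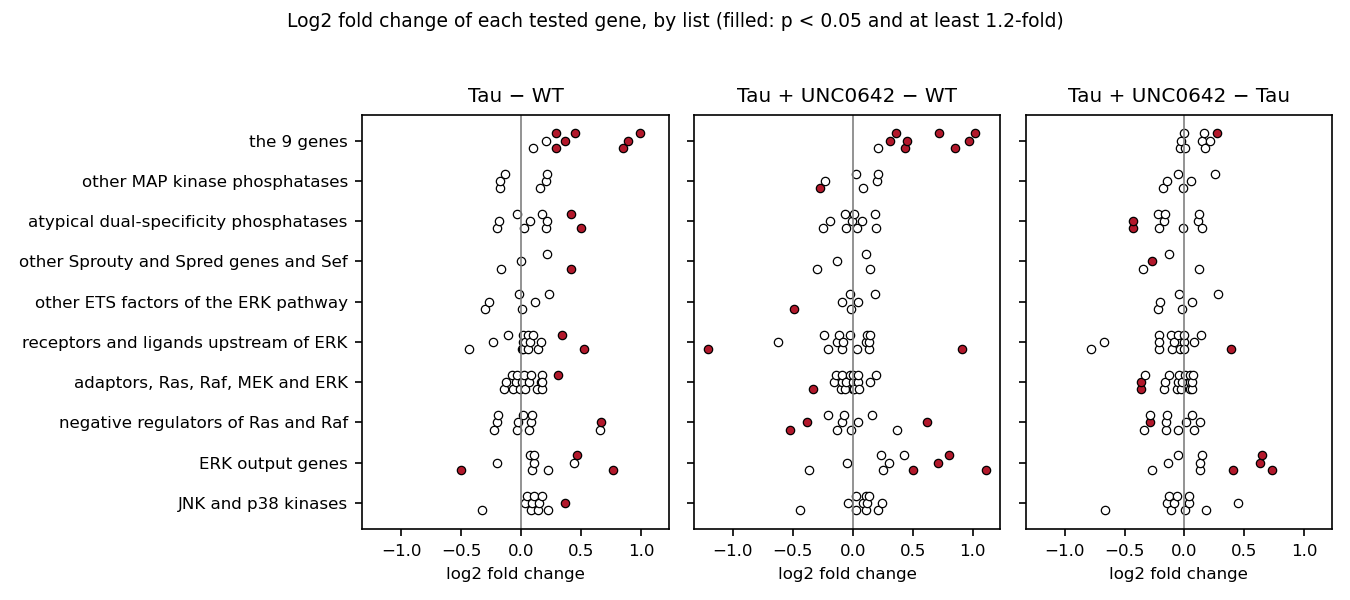
Log2 fold change of each tested gene of the 9 feedback genes and of the 9 other pathway lists, 1 panel for each comparison, with filled points for genes called changed. In Tau against WT 7 of the 9 feedback genes and 11 of the 92 other genes were called. The 9 genes and the lists were chosen with earlier results of these data known, so this contrast is a description and no test.

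The ERK output genes, transcription factors and other early products of ERK signalling, had 2 of 10 called up and 1 down in Tau against WT. Egr1, a zinc finger factor induced by synaptic activity, was at 73.6 and 80.7 CPM in WT, 145.1 and 116.5 CPM in Tau and 136.9 and 115.2 CPM in UNC0642 libraries. Its Tau and UNC0642 libraries overlapped each other and were all above WT. The log2 fold change of Egr1 in Tau against WT was 0.76 ± 0.12 (SE; edgeR's quasi-likelihood adjusted p = 0.0468), the sole adjusted p under 0.05 among the 92 genes in that comparison. Fosl2, an AP-1 subunit, was at 28.7 and 30.4 CPM in WT, 42.6 and 39.1 CPM in Tau and 62.3 and 65.7 CPM in UNC0642 libraries. It stepped up from group to group without overlap, as Dusp6 did, with log2 fold changes of 0.47 in Tau against WT, 0.65 in UNC0642 against vehicle and 1.11 in Tau + UNC0642 against WT (edgeR's quasi-likelihood adjusted p = 0.139, 0.0927 and 0.0018). Ier2, another immediate early gene, fell by 0.50 on the log2 scale in Tau against WT. In UNC0642 against vehicle Fos, Ier3 and Junb were also called up, with log2 fold changes of 0.73, 0.63 and 0.41. Their adjusted p by edgeR's quasi-likelihood test was 0.461, 0.4325 and 0.488. In WT replicates 1 and 2 Fos was at 45.8 and 23.2 CPM, Ier3 at 6.43 and 5.55 CPM and Junb at 75.8 and 51.8 CPM. Fosl2 was instead lower in WT replicate 1. That library matched the UNC0642 libraries in sex-linked expression, and treatment and sex cannot be told apart in UNC0642 against vehicle.

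Other named genes of the pathway were called in different sets of comparisons, and the differences between genes were not tested. None of those in this paragraph had an adjusted p under 0.05 by edgeR's quasi-likelihood test. In UNC0642 against vehicle, treatment and sex cannot be told apart. Errfi1, an inhibitor of the epidermal growth factor receptor, was called up in Tau and in Tau + UNC0642 against WT, with log2 fold changes of 0.67 and 0.62. Bdnf, the ligand of the receptor TrkB, was called up in all 3 comparisons, with log2 fold changes of 0.52, 0.39 and 0.91. Its adjusted p by the same test was 0.299, 0.547 and 0.0686, and its WT libraries lay apart, at 28.6 and 44.9 CPM. Spred2, Dusp19 and the Raf scaffold Ksr1 were called up in Tau against WT, with log2 fold changes of 0.42, 0.50 and 0.31. They were called down in UNC0642 against vehicle, with -0.27, -0.43 and -0.37 (edgeR's quasi-likelihood adjusted p = 0.480, 0.444 and 0.4325). All of these, Spred2, Dusp19 and Ksr1, stand in the study's own list of genes raised in Tau mice and lowered by UNC0642, which was chosen on these samples and is not independent evidence of their direction. Spred1, the relative of Spred2, was at 354.2 CPM on average in Tau and 396.8 CPM in UNC0642 libraries, while Spred2 was at 73.7 and 67.6 CPM in the Tau and 56.0 and 60.9 CPM in the UNC0642 libraries. Map2k3 and the growth factor gene Fgf1 were also called up in Tau against WT, Ksr2 and Cbl down in UNC0642 against vehicle, and Egf, Ksr2 and Dusp8 down in Tau + UNC0642 against WT.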

How the data were processed

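Gene counts were deposited by the authors as 1 featureCounts table per library, made from stranded, ribosomal RNA-depleted libraries trimmed with Cutadapt and aligned with TopHat2, per the labels. The submitters' processing notes name the mouse build mm10, SAMtools and edgeR, and neither versions nor the strand setting of the counting are given in the sources used here. Tables were joined by gene symbol, except 26 symbols that spreadsheet software had turned into dates in 2 tables, which were joined by position. Counts of all 6 libraries were fitted together in edgeR 4.0.16 (R 4.3.3) with 1 mean per group, after filterByExpr (minimum count 10, minimum total 15), with TMM normalization and the quasi-likelihood F test. The biological coefficient of variation was 12.3%. CPM values are TMM-normalized, except those of Prnp, of Mapt and of the 3-count limit, which are per total count. SEs come from the fold change and its F statistic, and 95% intervals from the t distribution. P-values were adjusted over all 20409 genes by the Benjamini-Hochberg method. Coordinates and exon lengths come from GENCODE M21 (GRCm38), where 53669 of 54429 symbols matched, and promoters from RefSeq (GRCm38.p6). DESeq2 1.42.0 and limma 3.58.1 (voom) were alternatives, with other scalings, filters, thresholds, a replicate block, a term for Xist (above or below 100 counts) and each library left out. The 9 genes and the lists were chosen with earlier results of these data known. Genes named from the other lists were, per comparison, the called genes with the smallest p, at most 10 (1 such gene is not reported here), and those nearest the mean of the 9 were the 5 with the highest r. Libraries of a group differed by more than counting noise.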

Additional observations from a re-analysis of the deposited data

How the results depend on the processing

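Over 16 alternatives for each of 27 gene comparisons, 413 of 432 values kept their side of the test, 12 lost a call, 6 gained a call and 1 was called with the opposite sign. Among the 413, 16 values changed sign, all in comparisons where the gene was not called. The value called with the opposite sign was Dusp5 in UNC0642 against vehicle, with a log2 fold change of -0.59 under the term for Xist against 0.17 without it. The number of the 9 genes called in Tau against WT, 7, was 0 by adjusted p, 3 at 1.5-fold and 6 to 7 with a library left out. In UNC0642 against vehicle it was 1, with 0 by adjusted p, 0 at 1.5-fold, 4 under the term for Xist and 0 to 1 with a library left out. In Tau + UNC0642 against WT it was 8, with 1 by adjusted p, 4 at 1.5-fold and 7 to 8 with a library left out. The median log2 fold change of the 9 was 0.34 to 0.40, 0.052 to 0.159 and 0.38 to 0.56 with a library left out, in the order of these comparisons, and 0.56 under the term for Xist in Tau + UNC0642 against WT. The share of all genes passing with no filter on low counts is not reported here. In that setting 6, 0 and 7 of the 9 genes had an adjusted p under 0.05, against 0, 0 and 1 with the filter. The cause of these differences was not tested. Under the term for Xist, Tau against WT rests on WT replicate 2, so it is nearly the same check as leaving out WT replicate 1. The log2 fold change of Dusp5 was 1.28 both ways and that of Spred1 0.19. Tau + UNC0642 against WT rests on WT replicate 1 under that term. Calls lost were Dusp14 and Spred1 in Tau against WT without TMM, under the term for Xist or without the library labelled WT replicate 1, Dusp14 also without Tau replicate 1, Dusp6 in UNC0642 against vehicle and Spry2 in Tau + UNC0642 against WT. Replicate numbers did not pair the libraries (correlations of deviations -0.034, -0.021 and -0.003), and with the replicate number as a block 7, 1 and 8 of the 9 genes were called. At 6.25 to 22.5 CPM, Dusp4, Dusp5 and Spry4 had the widest intervals.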

Other observations

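Gpat3, Eid1 and Skiv2l2, which followed the mean of the 9 feedback genes over the 6 libraries, showed the same order of groups. Gpat3, an enzyme of triglyceride synthesis, was at 2.92 and 3.05 CPM in WT, 4.40 and 4.75 CPM in Tau and 5.03 and 5.21 CPM in UNC0642 libraries. Eid1, an inhibitor of the acetyltransferase EP300, was at 190.1 and 193.3 CPM in WT, 228.9 and 232.9 CPM in Tau and 241.8 and 241.0 CPM in UNC0642 libraries. The RNA helicase gene Skiv2l2 rose least, from 78.0 and 80.5 CPM in WT to 91.2 and 92.7 CPM in UNC0642 libraries. These genes were picked for their likeness over 6 libraries out of 20409 genes, so their order of groups is a description and was not tested.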
